A study of Mus musculus with 10 samples.

Results

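Potassium channel genes outside the calcium-activated families were examined in mouse CGR8 embryonic stem (ES) cells and in their differentiated progeny, grown with or without EBIO, an opener of small- and intermediate-conductance potassium channels that calcium activates. The genes were those whose symbol begins with Kcn in the array annotation, except the calcium-activated Kcnn, Kcnma and Kcnmb genes, measured by probe sets with 1 gene symbol. There were 74 such genes among 18193 genes with a named probe set, with 149 probe sets in all. For the 41 genes with more than 1 probe set, the brightest by its mean over the 10 arrays was used. By symbol, 28 encode voltage-gated pore subunits (Kcna to Kcnh with the silent Kcns and Kcnv subunits), 3 are Kcnq channels, 15 inward rectifiers (Kcnj), 12 tandem-pore channels (Kcnk), 12 accessory subunits (Kcne, Kcnab, Kcnip) and 3 sodium-activated or related channels (Kcnt, Kcnu). The last, Kcnq1ot1, is a noncoding RNA from the Kcnq1 locus.

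The study measured total RNA on 10 Affymetrix arrays, and every sample came from the CGR8 line of strain SV129. In the undifferentiated stage, 3 days of 1 mM EBIO (n = 3) were compared with no EBIO (n = 3), both at passages 25, 26 and 27. Differentiated cells that had spent 5 days as embryoid bodies and 10 days with EBIO, at a dose the labels do not give (n = 2), were set against differentiated cells kept for those 10 days without EBIO (n = 2). All come from a single cell line, and the differentiated samples are whole mixed cultures. The series' title links the modulation of calcium-activated potassium channels to heart cell formation and to enrichment for cells resembling pacemaker cells.

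Potassium channels set the resting potential of a cell and end its action potentials. Voltage-gated channels repolarise excitable cells. In the heart the transient outward current is carried by Kcnd subunits with Kcnip2, and the delayed rectifiers by Kcnh2, Kcnq1 with Kcne1, and Kcna5. Inward rectifiers hold the membrane near the potassium potential. Kcnj2 and Kcnj12 give the background rectifier of working heart muscle, Kcnj3 and Kcnj5 form the acetylcholine-gated channel of atrium and sinus node, and Kcnj8 and Kcnj11 are pores of the ATP-sensitive channels. Tandem-pore channels carry leak currents.

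Values are the authors' log2 RMA values, differences are EBIO minus control on that log2 scale, and errors are SD over arrays or, for a difference, its standard error (SE). Genes entered a test if their values were above the array median on as many arrays as the smaller group held. "Rose" and "fell" mean an adjusted p under 0.05 (limma, Benjamini-Hochberg over all genes tested at that stage). The 6 ES arrays and the 4 differentiated arrays have different value distributions, so levels are compared within a stage only. Array medians were 4.52 to 4.55 in EBIO-treated and 4.55 to 4.62 in untreated ES cells, and 5.59 and 5.61 in EBIO-treated and 5.66 and 5.68 in untreated differentiated cells. The RMA scale can be compressed at its dim end, so a difference that starts or ends under the array median may be understated. The extent was not measured here.

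Many of these genes were dim. Of the 74 genes, 20 lay above the array median on all EBIO-treated ES arrays and 22 on all untreated ES arrays. The counts were 29 for EBIO-treated and 33 for untreated differentiated cells. At both stages 23 genes were tested, 6 in ES cells alone, 14 in differentiated cells alone and 31 at neither stage.

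In differentiated cells, 10 days of EBIO went with large changes of potassium channel genes in both directions. The genes of the acetylcholine-gated channel (Kcnj5, 20.2-fold higher, and Kcnj3, 2.19-fold higher), of the rapid delayed rectifier (Kcnh2, 5.65-fold higher) and of a silent voltage-gated subunit (Kcng2, 6.72-fold higher) rose. The accessory subunit genes Kcnab1 (14.0-fold lower) and Kcne3 (13.7-fold lower), the tandem-pore genes Kcnk6 (9.64-fold lower) and Kcnk1 (6.57-fold lower), Kcnj8 (3.84-fold lower) and Kcna5 (3.14-fold lower) fell. Of 37 genes tested, 8 rose and 12 fell, which is 54.1%, against 65.9% called among all 12338 genes tested. By direction the background was 33.3% higher and 32.6% lower. A change of at least 2-fold was called upward in 5 and downward in 6 of the 37, against 6.31% and 12.4% of all genes (18.7% in either direction). The median difference of the 37 genes was -0.06, and that of all genes tested was 0.02.

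**Figure D1:**
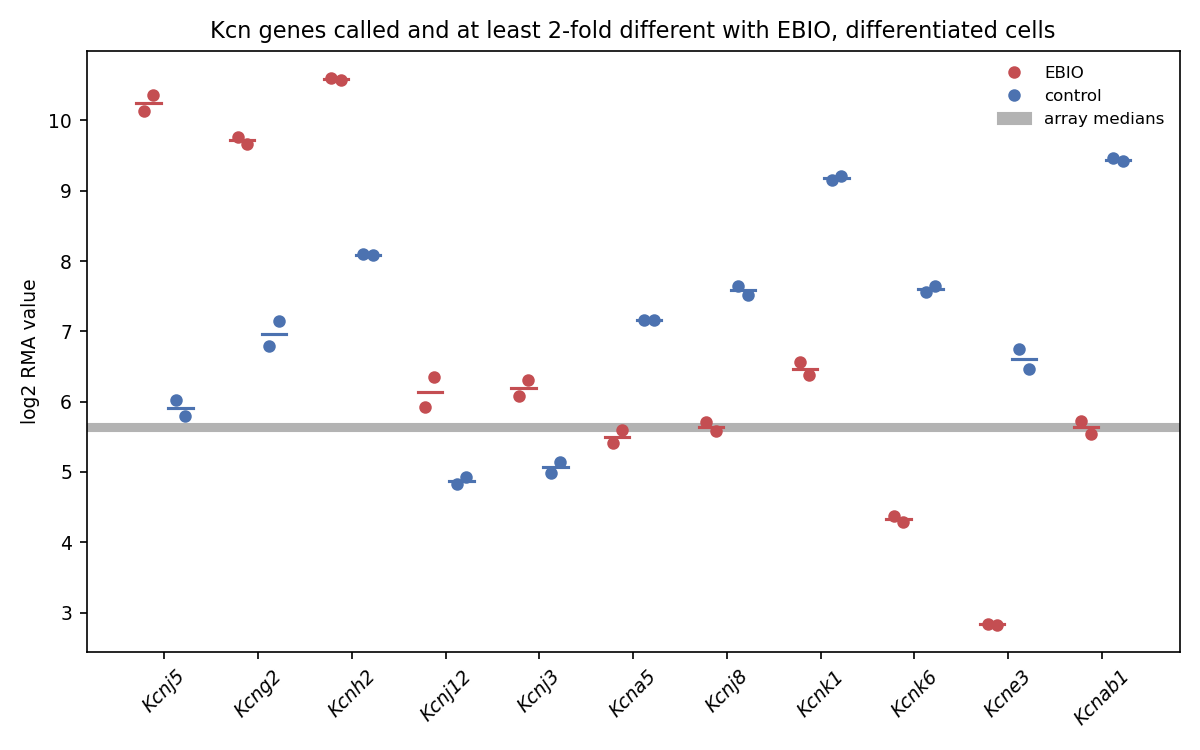
The 11 potassium channel genes called with at least a 2-fold difference in differentiated cells; the vertical axis is the log2 RMA value, each point is an array (EBIO left, control right, n = 2 each), short lines are means and the grey band spans the array medians. The groups do not overlap for any of the 11, which were chosen by their difference, so this is no separate support. The EBIO points of Kcne3 and Kcnk6 and the control points of Kcnj3 and Kcnj12 lie below the band. So do the lower EBIO points of Kcna5, Kcnab1 and Kcnj8.

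Markers of several cell types differed between these cultures. Of 10 cardiomyocyte markers all 10 rose, and their mean level per array was 12.44 and 12.47 with EBIO, against 8.33 and 8.40 without. Every tested marker of macrophages (7), endothelial cells (6), fibroblasts (6), epithelial cells (6) and endoderm and liver (6) fell. The mean level of the macrophage list was 4.51 and 4.57 with EBIO, against 10.51 and 10.82 without, with 1 and 7 of its 7 genes above the medians of all arrays of the group. For endothelial cells the means were 5.05 to 5.08 with EBIO against 7.784 to 7.785 without, and for fibroblasts 7.01 to 7.03 against 12.80 to 12.81. For epithelial cells they were 7.89 to 8.04 against 10.38 to 10.45, and for endoderm and liver 5.43 to 5.53 against 8.61 to 8.88. Of 6 tested neuronal markers 4 rose (mean level 6.04 to 6.11 against 5.60 to 5.68), and of 4 tested smooth muscle markers 3 rose and 1 fell (9.36 to 9.38 against 8.91 to 8.92). The part of cell composition in the channel results was not tested. In such mixed cultures, fewer cells of a type and less RNA per cell cannot be told apart.

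Among inward rectifiers 3 of 8 tested genes rose and 1 fell. Kcnj5, a subunit of the acetylcholine-gated channel, measured 10.13 and 10.36 with EBIO, against 6.02 and 5.79 without. Both control arrays lay little above their medians and the EBIO arrays far above theirs. The difference was 4.34 ± 0.12 (SE, adjusted p = 3.5e-06, n = 2 each). A second Kcnj5 probe set averaged 6.16 with EBIO and 4.45 without, a smaller difference of 1.70 in the same direction (adjusted p = 4.5e-05 in a fit of 23689 probe sets).

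Kcnj3, its partner subunit, measured 6.08 and 6.31 with EBIO, against 4.99 and 5.14 without, on the probe set used for the gene. The control arrays lay below their medians, and the difference was 1.13 ± 0.10 (adjusted p = 0.00027). The choice of probe set set the size of this result. A second one averaged 7.55 with EBIO and 3.24 without, a difference of 4.31 ± 0.23 (adjusted p = 4.4e-05 in the fit of probe sets), and another averaged 6.17 with EBIO and 2.99 without, a difference of 3.18 ± 0.07 (adjusted p = 3.6e-06). The fourth was below the medians on all 4 arrays, at 3.21 with EBIO and 2.67 without. All 4 Kcnj3 probe sets were higher with EBIO, and the one standing for the gene was above the array medians in ES cells too, unlike the other 3.

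The promoters of both subunit genes and of Kcnh2 and Kcnk1 are shown because Kcnj3 and Kcnj5 rose together, Kcnh2 differed in opposite directions at the 2 stages and Kcnk1 was lower at both. Each window runs from 250 bases before to 50 bases after the annotated gene start in RefSeq (build GRCm38.p6), 5′ to 3′ on the strand of the gene. Capitals mark matches, on either strand, to any of 3 motifs. The motif of GATA factors was searched as AGATAA. That of TEAD factors was searched as CATTCC, and an E-box as CAGCTG. The E-box motif reads the same on both strands, and no matches overlap in these windows. The windows are chr9:32344295-32344594 (minus strand) for Kcnj5, chr2:55435720-55436019 (plus strand) for Kcnj3, chr5:24329542-24329841 (minus strand) for Kcnh2 and chr8:125994852-125995151 (plus strand) for Kcnk1.
Kcnj5: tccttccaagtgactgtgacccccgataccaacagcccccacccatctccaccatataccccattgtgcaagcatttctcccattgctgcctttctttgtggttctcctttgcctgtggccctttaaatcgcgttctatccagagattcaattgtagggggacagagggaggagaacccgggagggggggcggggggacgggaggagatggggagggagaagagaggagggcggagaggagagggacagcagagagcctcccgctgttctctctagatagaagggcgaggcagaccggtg
Kcnj3: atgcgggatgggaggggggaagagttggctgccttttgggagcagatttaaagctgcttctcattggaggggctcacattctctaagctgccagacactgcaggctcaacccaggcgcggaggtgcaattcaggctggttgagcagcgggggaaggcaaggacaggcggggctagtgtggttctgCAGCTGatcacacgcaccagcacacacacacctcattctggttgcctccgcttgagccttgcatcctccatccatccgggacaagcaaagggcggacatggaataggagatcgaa
Kcnh2: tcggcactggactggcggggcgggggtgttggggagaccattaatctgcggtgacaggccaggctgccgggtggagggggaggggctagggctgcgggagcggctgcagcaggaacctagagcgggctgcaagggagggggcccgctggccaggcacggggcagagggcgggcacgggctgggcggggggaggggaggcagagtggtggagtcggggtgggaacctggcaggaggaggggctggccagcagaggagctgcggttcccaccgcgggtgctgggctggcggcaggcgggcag
Kcnk1: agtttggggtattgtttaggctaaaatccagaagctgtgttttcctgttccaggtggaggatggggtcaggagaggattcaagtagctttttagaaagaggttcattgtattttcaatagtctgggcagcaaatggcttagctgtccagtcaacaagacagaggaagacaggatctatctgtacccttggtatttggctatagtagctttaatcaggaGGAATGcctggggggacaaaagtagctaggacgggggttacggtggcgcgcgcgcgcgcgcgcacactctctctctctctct

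The Kcnj3 window held the E-box letters 65 bases before the gene start, and the Kcnk1 window the TEAD letters, on the opposite strand, 32 bases before it. The Kcnj5 and Kcnh2 windows held none of the 3 motifs. Of all 32851 promoter windows in the table, 11.2% held AGATAA, 14.7% CATTCC and 16.3% CAGCTG. The table held windows for 56 of the 74 genes. The GC content of the shown windows ranged between 49% for Kcnk1 and 74.3% for Kcnh2.

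Kcnj12, a background rectifier gene of heart muscle, measured 5.92 and 6.35 with EBIO, against 4.83 and 4.93 without. The difference was 1.26 ± 0.15 (adjusted p = 0.00068), and the control arrays lay under their medians. Kcnj2, the other background rectifier gene, was dim on every array, at 3.15 and 3.17 with EBIO, against 3.18 and 2.95 without, and was not tested. The pore genes of the ATP-sensitive channel differed from each other. Kcnj8 measured 5.71 and 5.58 with EBIO, against 7.65 and 7.52 without (-1.94 ± 0.09, adjusted p = 1.7e-05). Its EBIO values straddled the array medians. Kcnj11 measured 7.44 and 7.50 with EBIO, against 7.51 and 7.33 without (adjusted p = 0.65), and its groups overlapped. Kcnj4, Kcnj6 and Kcnj9 had differences of -0.14, -0.14 and -0.10 and were not called.

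Of 13 voltage-gated pore subunit genes tested, 2 rose and 4 fell. Kcnh2, the pore gene of the rapid delayed rectifier, measured 10.60 and 10.57 with EBIO, against 8.09 and 8.08 without. Replicates differed by at most 0.03 while the groups differed by 2.50 ± 0.07 (adjusted p = 3.5e-06). Kcng2, a subunit that is silent alone and modifies other voltage-gated channels, measured 9.77 and 9.66 with EBIO, against 6.79 and 7.14 without, a difference of 2.75 ± 0.13 (adjusted p = 2e-05). Kcna5, the ultrarapid delayed rectifier gene of atrium, measured 5.42 and 5.59 with EBIO, against 7.16 on both control arrays (-1.65 ± 0.08, adjusted p = 2.8e-05). Its EBIO values lay under the array medians.

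The transient outward current genes moved little. Kcnd3 measured 5.84 and 5.90 with EBIO, against 6.22 and 6.14 without, a difference of -0.31 (adjusted p = 0.011). That call was lost after quantile normalization of all 10 arrays (-0.17, adjusted p = 0.08), without the first control array (adjusted p = 0.053) and without the first EBIO array (adjusted p = 0.059). Its 3 other probe sets, all below the medians, differed by 0.13 to 0.27 in the opposite direction. Kcnd2 measured 6.16 and 5.97 with EBIO, against 6.08 and 6.18 without (adjusted p = 0.59). Kcna4 was below the medians on every array, at 4.77 and 4.86 with EBIO, against 4.20 and 4.34 without, and was not tested, although without a filter it was called (0.54, adjusted p = 0.0043). The other falls, named after their values were seen, were those of Kcnd1 (-0.80), whose product forms A-type channels, and Kcns3 (-0.50), a silent subunit gene. The 7 genes not called were Kcnf1, Kcnc1, Kcnc4, Kcna1, Kcnh3, Kcnd2 and Kcna7, on the probe set used for each. For Kcnf1, a silent subunit gene, this depended on the probe set. The one used averaged 5.93 with EBIO and 5.78 without, and a second averaged 5.97 with EBIO and 4.15 without, a rise of 1.82 ± 0.17 (adjusted p = 0.00036 in the fit of probe sets). Among the 7, Kcna1, a brain delayed rectifier gene, measured 8.35 and 8.25 with EBIO, against 8.41 and 8.19 without.

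**Figure D2:**
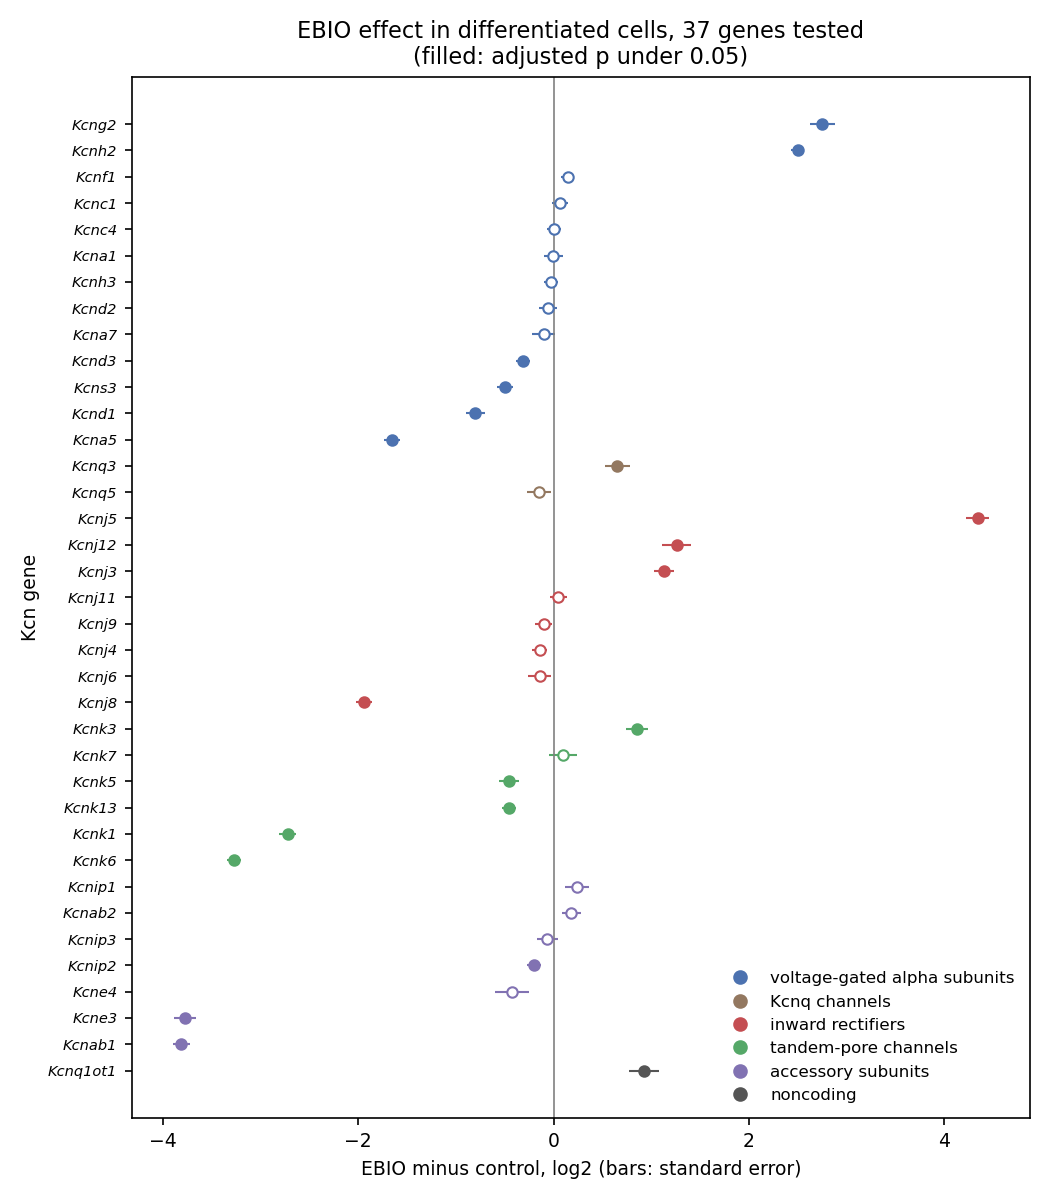
EBIO minus control (log2) for the 37 potassium channel genes tested in differentiated cells, grouped by family and ordered by size within each; bars are standard errors (n = 2 arrays a group) and filled points passed an adjusted p of 0.05. Kcnj5 lies farthest to the right at 4.34, and Kcnab1 farthest to the left at -3.81, with rises and falls inside the voltage-gated, inward rectifier and tandem-pore families.

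Tandem-pore genes had 1 rise and 4 falls among 6 tested. Kcnk6 measured 4.38 and 4.28 with EBIO, against 7.56 and 7.64 without (-3.27 ± 0.08, adjusted p = 2.5e-06). Kcnk1 measured 6.56 and 6.38 with EBIO, against 9.16 and 9.22 without (-2.72 ± 0.09, adjusted p = 6.7e-06), and its second probe set fell by 2.37. Both encode weakly rectifying leak channels, and the Kcnk6 values with EBIO lay under the medians. Kcnk3, an acid-sensitive leak channel gene, measured 7.01 and 7.16 with EBIO, against 6.36 and 6.11 without (0.85 ± 0.11, adjusted p = 0.001). Its 2 other probe sets, below the medians on all 4 arrays, differed by 0.30 and 0.35. Smaller falls were those of Kcnk5 (-0.46) and of Kcnk13 (-0.46), named after its value was seen. The Kcnk5 values with EBIO, 5.83 and 5.58, straddled the array medians. Its second probe set, below the medians on all 4 arrays, differed by -0.12. Kcnk2, a stretch-sensitive channel gene, was below the medians on every array, at 4.50 and 4.21 with EBIO, against 5.19 and 5.35 without, and was not tested. Without a filter it was called (-0.92, adjusted p = 0.0022).

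Of the accessory subunit genes 3 of 7 tested fell, and none rose in limma (3 of the 7 at an unadjusted p under 0.05, all falls). Kcnab1, which encodes a cytoplasmic beta subunit of Kcna channels, measured 5.73 and 5.54 with EBIO, against 9.46 and 9.42 without (-3.81 ± 0.09, adjusted p = 2.4e-06). Its EBIO values straddled the array medians. Its second probe set fell by 2.57 (adjusted p = 0.00094 in the fit of probe sets). Kcne3, a partner of Kcnq1 in epithelia, measured 2.84 and 2.83 with EBIO, against 6.76 and 6.46 without (-3.77 ± 0.11, adjusted p = 4.6e-06). Its EBIO values lay far below the array medians, where the scale can be compressed. Kcnip2, the calcium-binding partner of Kcnd channels, measured 7.05 and 7.09 with EBIO, against 7.29 and 7.25 without. Its difference of -0.20 (adjusted p = 0.045) was lost when any 1 array was left out (adjusted p = 0.089 to 0.19), and a second probe set differed by 0.195 upward. A further one, below the medians on all 4 arrays, differed by -0.415.

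Of the 3 Kcnq genes 2 were tested. Kcnq3, a subunit of the neuronal M current, measured 6.59 and 6.91 with EBIO, against 6.19 and 6.01 without (0.65 ± 0.13, adjusted p = 0.0057), and Kcnq5 differed by -0.15 (adjusted p = 0.34). The genes of the slow delayed rectifier were below the medians and not tested. Kcnq1 measured 5.28 and 5.32 with EBIO, against 5.59 and 5.62 without, and was called without a filter (-0.31, adjusted p = 0.019). Kcne1 measured 4.90 and 4.96 with EBIO, against 4.96 and 5.14 without. The noncoding Kcnq1ot1, which silences imprinted neighbours on the paternal chromosome, measured 7.07 and 7.52 with EBIO, against 6.45 and 6.29 without (0.92 ± 0.16, adjusted p = 0.0031). A second of its 6 probe sets rose by 1.07 (adjusted p = 0.0054).

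**Figure D3:**
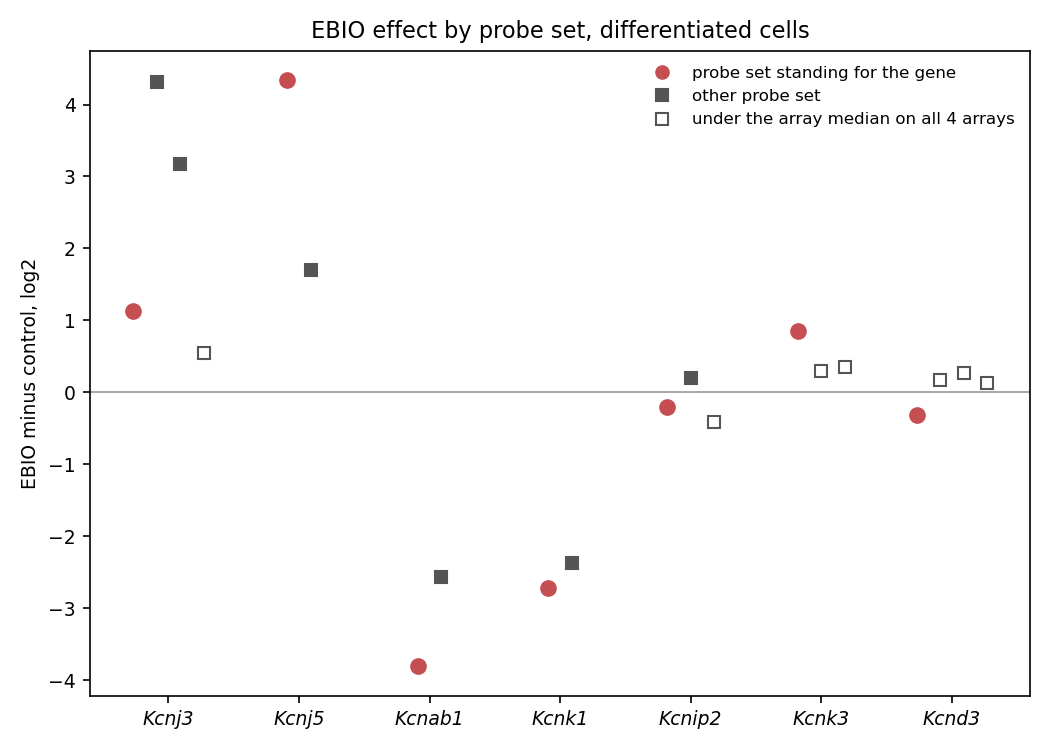
EBIO minus control (log2, means of n = 2 arrays a group) in differentiated cells for every probe set of 7 genes; red circles stand for the gene, grey squares are its other probe sets, and open symbols were below the array median on all 4 arrays. The Kcnj3 probe sets run from 0.55 to 4.31, those of Kcnab1 and Kcnk1 all lie below 0, and those of Kcnip2 and Kcnd3 lie on both sides of 0.

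Among the 20 called genes, 6 were above the medians in a single group, the one where they were high, and passed the filter through it. These were Kcnj3 and Kcnj12 through EBIO, and Kcna5, Kcne3, Kcnk6 and Kcnk13 through the controls. Kcnab1, Kcnj8 and Kcnk5 had 1 EBIO array above its median, so they also needed the controls, where they were high, to pass. The 18 measured genes of a list of heart potassium currents, chosen with earlier results of these data known, did not move one way. Of the 13 tested, 5 rose (Kcnj5, Kcnh2, Kcnj12, Kcnj3 and Kcnk3) and 6 fell (Kcnk6, Kcnk1, Kcnj8, Kcna5, Kcnd3 and Kcnip2), with a median difference of -0.06. Of all genes tested in differentiated cells, 65.9% were called, 33.3% higher and 32.6% lower.

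Partners of potassium channels outside the Kcn symbols moved both ways as well. Of 18 such genes 16 had a probe set and 11 were tested in differentiated cells, of which 4 rose and 4 fell, with a median difference of 0.09. The shares among all genes tested there were 33.3% higher and 32.6% lower. Rgs6, which speeds the closing of the acetylcholine-gated channel, averaged 7.05 ± 0.22 with EBIO and 4.55 ± 0.30 without (SD, n = 2 each, 2.51 higher, adjusted p = 7.8e-05). Its G protein partner Gnb5 rose by 1.02, and the related Rgs7 fell by 0.97. Akap9, a scaffold of the slow delayed rectifier, rose by 0.79, and Gnao1 by 0.28. Ank2 (-0.69), Gnb1 (-0.36) and Dlg1 (-0.25) fell. Abcc8 and Abcc9, the regulatory subunits of ATP-sensitive channels, were too dim to be tested, with averages of 5.34 and 4.94 with EBIO and 5.30 and 4.94 without.

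In ES cells, 3 days of EBIO went with fewer called genes of this group, all of them lower. Kcnk1 (5.82-fold lower), Kcnk5 (3.53-fold lower), Kcnh2 (1.95-fold lower) and Kcnip2 (1.83-fold lower) fell. Of these, 2 fell at least 2-fold and no gene rose as much, against 8% and 10.1% of all genes. These 4 were 13.8% of the 29 genes tested, against 44.8% called among all 12096 genes, 23.5% higher and 21.2% lower. No potassium channel gene rose in limma, and of the 5 genes at an unadjusted p under 0.05 none was higher. Of the 29 tested differences 24 were below 0, with a median of -0.14, against 53.9% of all genes and a median of -0.04.

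Kcnk1 measured 4.40, 5.30 and 5.52 in EBIO-treated ES cells, against 7.74, 7.26 and 7.86 in untreated ES cells (passages 25, 26 and 27 in that order in both). The groups were well apart, although the EBIO arrays spread over more than a unit, and the passage-25 array lay under its median. The difference was -2.54 ± 0.29 (SE, adjusted p = 0.00016, n = 3 each), and its second probe set fell by 1.68. Kcnk5, an alkaline-activated leak channel gene, measured 5.04, 5.08 and 5.28 with EBIO, against 7.07, 6.99 and 6.80 without (-1.82 ± 0.13, adjusted p = 1.4e-05). Its second probe set fell by 0.84.

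Kcnh2 measured 5.04, 4.73 and 4.55 with EBIO, against 5.88, 5.96 and 5.38 without (-0.96 ± 0.19, adjusted p = 0.0035). The EBIO values lay just above the array medians, and the groups did not overlap. Kcnip2 measured 4.68, 4.72 and 4.57 with EBIO, against 5.77, 5.62 and 5.20 without (-0.87 ± 0.16, adjusted p = 0.0024). Its EBIO values also lay just above the array medians. A second Kcnip2 probe set, above the medians on all 6 arrays, differed by -0.13 and was not called (adjusted p = 0.49 in a fit of 23184 probe sets). A further one, below the medians on all 6 arrays, differed by -0.416. Kcnk6 was below its filter in ES cells, at 4.002, 4.19 and 4.24 with EBIO, against 4.56, 4.79 and 5.27 without. With no filter it was called (-0.73, adjusted p = 0.019).

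**Figure D4:**
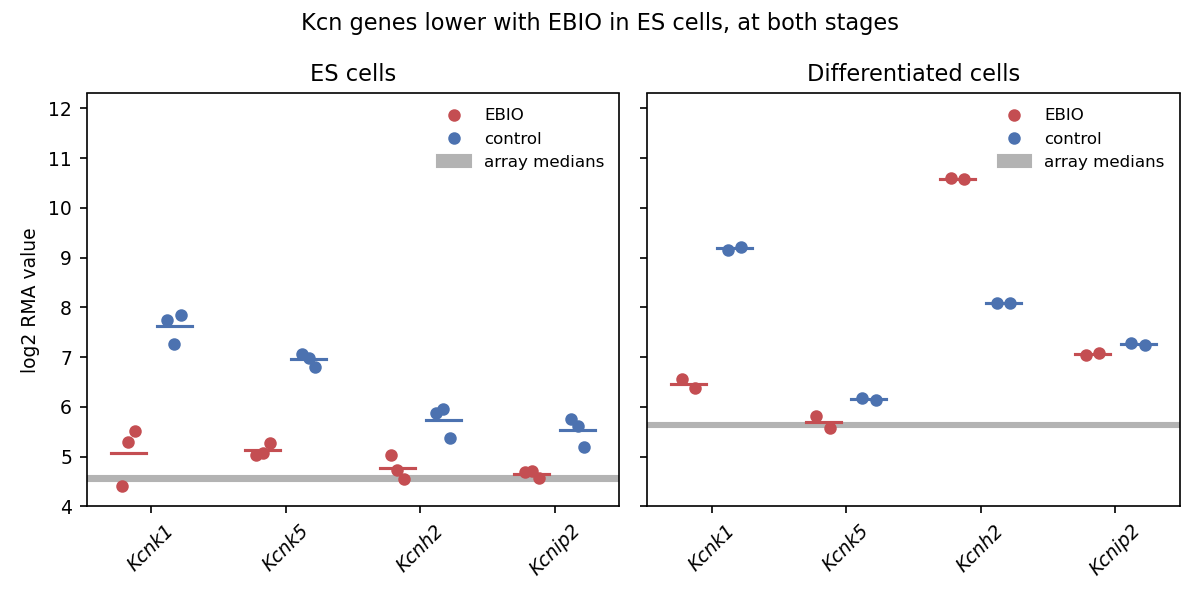
The 4 potassium channel genes lower with EBIO in ES cells, shown at both stages; the vertical axis is the log2 RMA value, each point is an array (EBIO left of control; n = 3 each in ES cells, n = 2 each in differentiated cells), short lines are means and the grey band spans the array medians. The ES groups do not overlap for any of the 4, which were chosen by their calls, so this is no separate support. Kcnh2 is the gene among them whose EBIO points lie above its control points in differentiated cells.

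The other 25 tested genes had differences between -0.37 and 0.11 in ES cells (adjusted p = 0.073 to 0.94). By family the calls were 2 of 5 tandem-pore, 1 of 13 voltage-gated and 1 of 6 accessory genes, with none of the 4 inward rectifiers tested (0 at an unadjusted p under 0.05). Kcnj3 measured 5.14, 5.26 and 5.03 with EBIO, against 5.23, 5.18 and 5.34 without (adjusted p = 0.51). Kcnj11 differed by -0.11 (adjusted p = 0.54), Kcnk3 by -0.27 (adjusted p = 0.27) and Kcng2 by -0.06 (adjusted p = 0.70). Kcnip3, a relative of Kcnip2, was not called, although a second probe set of it fell by 0.57 (adjusted p = 0.033 in the fit of probe sets). Kcnq1ot1 measured 5.50, 5.54 and 6.20 with EBIO, against 5.42, 5.58 and 6.06 without (adjusted p = 0.85), with the passage-27 array highest in both groups. Kcnj5, Kcnj12, Kcna5, Kcnab1, Kcne3 and Kcnj8 were dim in all 6 ES arrays and were not tested.

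Same-numbered ES arrays shared a passage. With the passage as a block 7 genes fell and none rose, and 53.5% of all genes were called. The added ones were Kcnj4 (-0.36, adjusted p = 0.027), Kcnc1 (-0.37, adjusted p = 0.044) and Kcna7 (-0.30, adjusted p = 0.05). Without the passage-27 control array 7 genes fell too, with Kcnc1 (-0.58), Kcnk3 (-0.47) and Kcns3 (-0.43) added. In that fit 48.1% of all genes were called. In the main fit, of the 9 tested channel partners 4 rose in ES cells (Gnai2 by 1.36, Gnb5 by 0.94, Dlg1 by 0.86 and Gnb1 by 0.67) and none fell. Of all genes tested there, 44.8% were called, 23.5% higher and 21.2% lower.

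Markers also moved in ES cells. All 8 pluripotency markers fell, with a mean level of 7.14 to 7.64 with EBIO, against 10.99 to 11.20 without. Of these, 6 lay above the medians of all EBIO-treated and 8 of all untreated ES arrays. Smooth muscle markers moved the other way: 3 of 4 tested rose (mean level 8.06 to 8.26 against 5.50 to 6.15). Of the epithelial markers 3 of 6 rose and 2 fell (10.07 to 10.57 against 8.03 to 8.75). The cardiomyocyte list had 2 falls among 5 tested, with 2 of its 10 genes above the medians of all EBIO-treated and 3 of all untreated ES arrays. The 3′ minus 5′ difference of the actin control probe sets, which tracks RNA integrity, was 0.14 ± 0.06 with EBIO and 0.42 ± 0.09 without in ES cells (SD, n = 3 each), and 0.46 ± 0.02 with EBIO and 0.43 ± 0.04 without in differentiated cells (n = 2 each). That of Gapdh was 0.023 ± 0.019 with EBIO and -0.0055 ± 0.073 without in ES cells, a difference smaller than the SD of the untreated arrays. The part of these differences in the channel results was not tested.

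EBIO was given for 3 days at 1 mM to ES cells and for 10 days, at a dose not given, to differentiated cells. Stage, duration and dose therefore cannot be told apart. The EBIO effects at the 2 stages were set against each other in a fit of all 10 arrays. Of 45 potassium channel genes tested there, 16 differed between the stages, which is 35.6%, against 45.5% of 13712 genes. The effect was higher in differentiated cells for 10 genes (20.5% of all genes) and lower for 6 (25% of all genes). Of these, 7 and 5 differed by at least 2-fold (9.65% and 16.1% of all genes). Kcnh2 was the gene called in opposite directions, lower in ES cells and higher in differentiated cells, with a stage difference of 3.46 ± 0.26 (differentiated minus ES effect, adjusted p = 1.5e-06). Kcnk1 was lower at both stages, and its effects were not called different (-0.17 ± 0.40, adjusted p = 0.76). Kcnk5 fell at both stages and by more in ES cells (1.36 ± 0.18, adjusted p = 0.00012). Kcng2, Kcnj3, Kcnk3 and Kcnd1, tested at both stages and called in differentiated cells alone, differed between the stages by 2.81, 1.24, 1.13 and -0.91. The Kcnd1 difference was -0.30 and not called (adjusted p = 0.091) with the probe sets of each gene averaged, and its 2 other probe sets, below the medians in differentiated cells, differed there by 0.14 and -0.33. Kcnq1ot1 and Kcns3 had the same pattern of calls without a called stage difference (0.86, adjusted p = 0.062, and -0.21, adjusted p = 0.46). With the replicate block the Kcnq1ot1 difference was called (adjusted p = 0.0052).

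**Figure D5:**
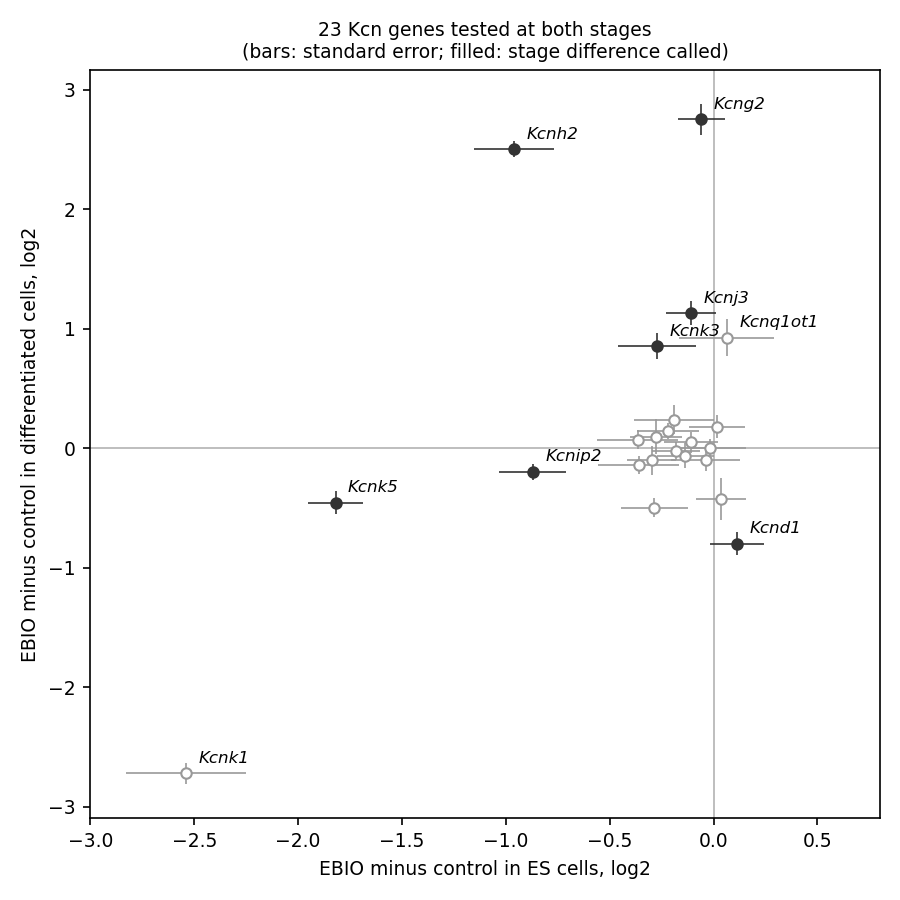
EBIO minus control in ES cells (horizontal, log2) against differentiated cells (vertical, log2) for the 23 potassium channel genes tested at both stages; bars are standard errors, and filled points passed an adjusted p of 0.05 for the difference between stages. Kcnh2 lies at -0.96 and 2.50, Kcnk1 at -2.54 and -2.72, and most of the other genes cluster near 0.

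The 31 genes tested at neither stage differed by -0.24 to 0.10 in ES cells and by -1.17 to 0.54 in differentiated cells. The 1 with a difference of at least 2-fold was Kcnt2, a sodium-activated channel gene named after its values were seen, which was dim throughout. It measured 2.87 and 2.79 with EBIO, against 4.13 and 3.88 without, in differentiated cells, and was called without a filter (adjusted p = 0.00054). Of the 3 sodium-activated or related genes none was above the medians on any array.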

How the data were processed

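Total RNA of 10 samples was labelled with biotin and measured on Affymetrix arrays, per the labels' protocols. RMA, named in the submitters' processing notes without a version, gave the authors' deposited log2 values. It removes background, equalises array distributions and combines probes into 1 value per probe set. The ES and differentiated arrays looked normalized as separate sets: mean quantile differences between arrays were at most 0.0931 within the ES set and 0.0497 within the differentiated set, and at least 0.91 between them.

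Of 45101 probe sets 64 were controls and 34945 had 1 gene symbol (932 had several and 9160 none). Of those with 1 symbol, 34741 were updated through a RefSeq gene table, which changed no symbol of the 74 genes. Genes above the 50th percentile of their array on at least 3 (ES) or 2 (differentiated, and 4 groups together) arrays were tested with limma 3.58.1 in R 4.3.3, with Benjamini-Hochberg adjustment over all genes tested and a threshold of 0.05. Each stage was fitted on its own arrays, and the stage difference on all 10. The residual degrees of freedom were 4, 2 and 6. The script was tested on simulated data in which few genes changed. Of changes of 0.5 (log2) it called 5.97% with the ES design and 25.4% with the differentiated design. For changes of 1 the shares were 67.2% and 83.6%. More genes changed in the real data, so these shares need not hold there. For an array set, the number of arrays limits the precision.

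The series' design text calls the samples independent experiments. The p-values rest on the spread between arrays, which limma moderated with that of all genes. This gave median total degrees of freedom of 8.54 in ES cells and 5.67 in differentiated cells. The main ES fit had no term for passage. ES replicate numbers pair by passage. Deviations from group means correlated at 0.33, 0.22 and 0.60 for same-numbered arrays, and at -0.5 to 0.24 for the others. In differentiated cells the correlation was -0.11, and the numbers were not treated as pairs.

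Genes named were the called ones with at least a 2-fold change and groups that do not overlap, the largest called rise and fall of each family, a list of heart potassium current genes and Kcnq1ot1. Every other gene named was chosen after its values were seen. Members and lists were chosen with earlier results of these data known. Alternatives covered the filter, probe set averaging, variance prior, centring, quantile normalization, blocks, a joint fit and leaving out each array.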

Additional observations from a re-analysis of the deposited data

Results flagged for a closer look

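In 16 of the 45 potassium channel genes tested on all 10 arrays, the EBIO effect in differentiated cells differed from that in ES cells (limma, adjusted p under 0.05). EBIO duration and dose also differed between the stages. The differences (differentiated minus ES effect, log2) were 4.39 for Kcnj5, 3.46 for Kcnh2, 2.81 for Kcng2, 1.36 for Kcnk5, 1.33 for Kcnj12, 1.24 for Kcnj3, 1.13 for Kcnk3, 0.68 for Kcnj10, 0.67 for Kcnip2 and 0.65 for Kcnq3. They were -3.87 for Kcnab1, -3.73 for Kcne3, -2.54 for Kcnk6, -1.79 for Kcnj8, -1.56 for Kcna5 and -0.91 for Kcnd1. Kcnj5, Kcnj12, Kcnq3, Kcnab1, Kcne3, Kcnj8 and Kcna5 lay below the medians of all 6 ES arrays, where a difference can be compressed. For Kcnk6 this held in all 3 EBIO-treated ES arrays. The Kcnj10 difference rests on values near or below the array medians at both stages, and its call was lost in 6 of the 10 fits that left out 1 array, as was that of Kcnip2. The Kcnq3 call was lost in 2 of the 10. The Kcnd1 difference was -0.30 and not called (adjusted p = 0.091) with the probe sets of each gene averaged.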

How the results depend on the processing

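The called genes and the tested heart current genes were recomputed under each alternative where they still passed its filter. In those fits none that was called changed sign. With a filter at the 75th percentile only 3, 6 and 9 of the genes were tested in ES cells, differentiated cells and the stage fit. The calls there were 2 lower in ES cells, 3 higher and 2 lower in differentiated cells, and 4 higher and 1 lower for the stage difference. Of all genes, 58.8%, 74.1% and 54.2% were called in those fits, in the same order. Averaging the probe sets of each gene left 22 genes tested in differentiated cells, with 7 rises and 6 falls (66.8% of all genes called). Kcnd1, Kcnd3, Kcnip2, Kcnk5, Kcnk13, Kcns3, Kcnq3 and Kcnq1ot1 then failed the filter, so averaging did not test their calls. With the replicate block 7 genes fell in ES cells, and 8 rose and 12 fell in differentiated cells (Kcne4 gained, Kcnip2 lost). With it 13 stage differences were higher (Kcnq1ot1, Kcnh7 and Kcns1 gained). The block changed no other call of these genes beside those given in the report. Of all genes, 53.5%, 60.7% and 52.2% were called with it in ES cells, differentiated cells and the stage fit. Kcnip2 in differentiated cells also lost its call without a filter, with a trended prior, after centring or quantile normalization and in the joint fit (adjusted p = 0.082 to 0.37). A crossed pairing of the differentiated arrays, chosen after seeing the data, gave 8 rises and 12 falls, with 65.8% of all genes called. Leaving out 1 array at a time gave 4 to 7 falls and no rise (0 in each fit) in ES cells. In those fits 36.6% to 48.1% of all genes were called, and the 7 falls came without the passage-27 control array (48.1%). In differentiated cells the lone array left in a group is assumed to vary like the others, so only differences are given here. Kcnj5 ranged from 4.22 to 4.45, Kcnab1 from -3.9 to -3.71 and Kcnip2 from -0.218 to -0.177. Over the 10 stage fits, their stage differences ranged from 4.28 to 4.51, -3.96 to -3.78 and 0.555 to 0.838. Without a filter 12 rises and 16 falls were called among all 74 genes in differentiated cells, and 46.1% of all 18193 genes were called. Over all genes in differentiated cells, fitting the 4 groups together gave 2625 rises, against 4111 with that stage fitted alone, and the 75th percentile filter gave 2529 falls, against 4023. Dim probe sets limit these results: 31 of the 74 genes were tested at neither stage.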
